A study of Mus musculus with 12 samples.

Results

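Day 5 of a differentiation of mouse embryonic stem (ES) cells with floxed or deleted Smchd1 is described here across genes, as 4 of the 12 libraries of the series, chosen by their labelled day. The cells were C57BL/6 ES lines, each derived from 1 blastocyst and split into a floxed part (Smchd1 fl/fl), left untransduced, and a deleted part (Smchd1 del/del), transduced with the retrovirus MSCV-Cre-puro and then selected with puromycin. The deletion therefore cannot be told apart from transduction and selection in any comparison. All cells went through 2i and LIF and then serum and LIF. LIF was then removed and Fgf2 added, the Gsk3 inhibitor followed after 2 days, and Gdf11 after 4 more days, so the day 5 cells had the inhibitor and not yet Gdf11. Line 1 and line 3 each gave 1 floxed library (fl1, fl3) and 1 deleted library (del1, del3), and the 2 lines are reported side by side. Each difference within a line rests on 1 library per genotype.

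Smchd1 encodes a non-canonical SMC protein that takes part in silencing on the inactive X chromosome, at imprinted clusters and at clustered genes such as the Hox genes. Inhibition of Gsk3 activates Wnt signalling by stabilising beta-catenin. With Fgf, this moves pluripotent cells to neuromesodermal progenitors, caudal cells marked by T, Sox2, Cdx2 and Nkx1-2, which give rise to spinal cord and, through Tbx6 and Msgn1, to presomitic mesoderm, the tissue that forms somites.

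All 4 libraries held reads of these progenitor markers. The gene T had 651 reads in fl1, 554 in del1, 743 in fl3 and 608 in del3, Cdx2 had 507, 519, 744 and 642, Sox2 had 375, 419, 613 and 221, and Nkx1-2 had 125, 95, 196 and 118. None of the 4 genes passed the test in either line.

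Some properties of the libraries have to be known first. Gene reads were 4.36 M (mega) in fl1, 4.78 M in del1, 7.60 M in fl3 and 3.99 M in del3, and the share of reads that lay in genes was 24.0% in fl3 against 14.3 to 15.3% in the other 3. Levels are given as log2 RPM (reads per M reads) after each library was shifted by its median gene, because the median gene of fl3 sat 0.33 above and those of fl1, del1 and del3 0.41, 0.35 and 0.48 below the mean of the 12 libraries. The cells are labelled male, but the line 1 libraries had almost no reads of the Y-linked genes Ddx3y, Eif2s3y, Kdm5d and Uty. These 4 genes summed to 11 reads in fl1 and 12 in del1 against 1186 in fl3 and 1310 in del3, and the same split by line held at days 1 and 8, with 2 to 42 reads against 240 to 2652. Xist had 86, 171, 127 and 20 reads in fl1, del1, fl3 and del3, and the median of 430 X-linked genes in line 1 minus line 3 was -0.01 between the floxed and -0.08 between the deleted libraries at day 5. The line number is thus also a difference in Y-linked reads, whose part in any result was not tested.

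The gene that was targeted, Smchd1 (mm10 chromosome 17, 71344489 to 71475343), had less RNA in the deleted library of both lines. It had 366 reads in fl1 and 102 in del1, and 919 in fl3 and 104 in del3. Both deleted libraries lay under both floxed ones, as for 19.8% of all tested genes, with levels of 2.05 and 2.38 against 4.05 and 4.52. The read ratio was 0.251 in line 1 (95% interval 0.199 to 0.313, counting error only) and 0.225 in line 3 (0.182 to 0.276), and the log2 difference between these was -0.15 ± 0.42 (SE). Over both lines Smchd1 fell by 2.07 ± 0.24 on the log2 scale (SE, n = 2 lines, limma with Benjamini-Hochberg adjustment over all genes, adjusted p = 0.043). This SE takes its spread from all 6 groups of the 12 libraries and leaves the libraries of a line unpaired. With only the 4 day 5 libraries the adjusted p was 0.823 (limma). Reads remained in the deleted libraries, and whether they come from a part of the gene that was not deleted was not tested.

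Beyond Smchd1, no gene was called over both lines. With the 2 lines as replicates, 0 genes were called higher and 1 lower, Smchd1, which is 0.00711% of the 14063 genes tested with limma, and 1088 genes had an unadjusted p under 0.05. With the line as a replicate block, 0 genes were called (limma, 1038 at an unadjusted p under 0.05), and the adjusted p of Smchd1 was 0.137. Over 24 alternative settings that p ran from 0.00479 to 0.995. Without del1 the same comparison called 963 genes higher and 608 lower, and without any other single library it called 0 or 1.

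The within-line comparison borrows its error from the day 1 and day 8 replicates, with 4 residual degrees of freedom, and so assumes that day 5 libraries vary as those do. On that basis line 1 had 0 called genes (0% of those tested, limma, 309 at an unadjusted p under 0.05). Line 3 had 744 called higher (5.29%) and 368 called lower (2.62%). The difference between the lines gave 0 called genes (0%, limma, 2481 at an unadjusted p under 0.05), so no single gene is shown to respond differently in the 2 lines by this fit, while limma-voom called 314 genes. The line 3 count moved with the libraries that set the error. It was 219 to 230 without any 1 of the 4 day 1 libraries, 612 and 621 without del1 and del3 of day 8, and 4361 and 4352 without fl1 and fl3 of day 8. It was 0 on the scale as deposited, which divides by all reads and lowered the median line 3 difference with the share of reads in genes, and 0 with all genes of at least 1 read tested.

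Compared library by library, del3 was the one that stood apart in the size of its differences. Of 12461 genes with at least 100 reads, 18.3% differed over 2-fold between del3 and fl3, 12.5% between del3 and fl1 and 11.9% between del3 and del1. The pairs without del3 differed over 2-fold at 1.86% (del1 and fl1), 2.06% (del1 and fl3) and 2.68% (fl1 and fl3) of genes. The median absolute log2 difference was 0.15 in line 1 and 0.45 in line 3. The deleted library of line 1 was thus closer to its own floxed library than the floxed libraries of the 2 lines were to each other.

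**Figure D1:**
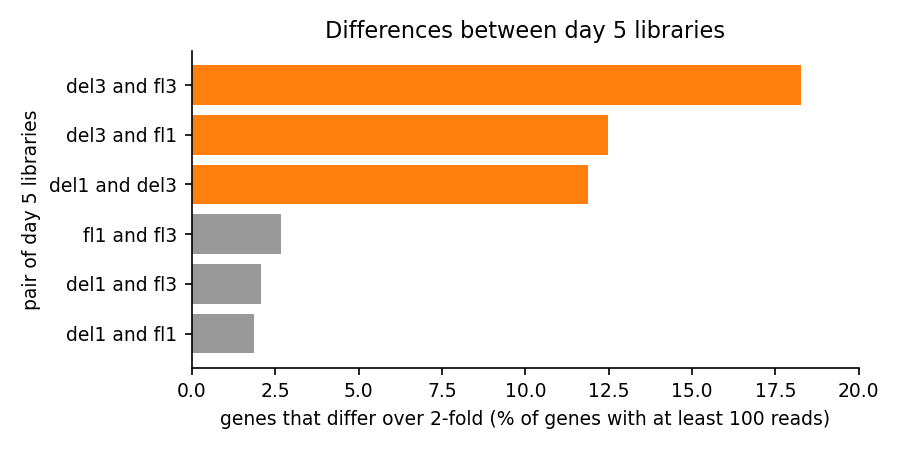
Share of genes with at least 100 reads that differed over 2-fold (x axis, %) for each pair of day 5 libraries (y axis). Bars with del3 are orange. They reach 11.9 to 18.3%, against 1.86 to 2.68% for the 3 grey bars.

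Read ratios were also compared within each line. A 95% exact interval of the read ratio (counting error only) excluded 1 for 3036 genes in line 1 and 8897 in line 3, of 13793 with at least 20 reads. Where both intervals excluded 1, 288 genes were higher in both deleted libraries, 547 were lower in both, and 1208 went opposite ways. Of the latter, 670 were higher in line 1 and lower in line 3, and 538 the reverse. Over all 14063 tested genes, whatever their intervals, 19.8% were higher in both, 26.8% lower in both and 53.4% opposite. Opposite signs were thus also the most frequent outcome over all genes.

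**Figure D2:**
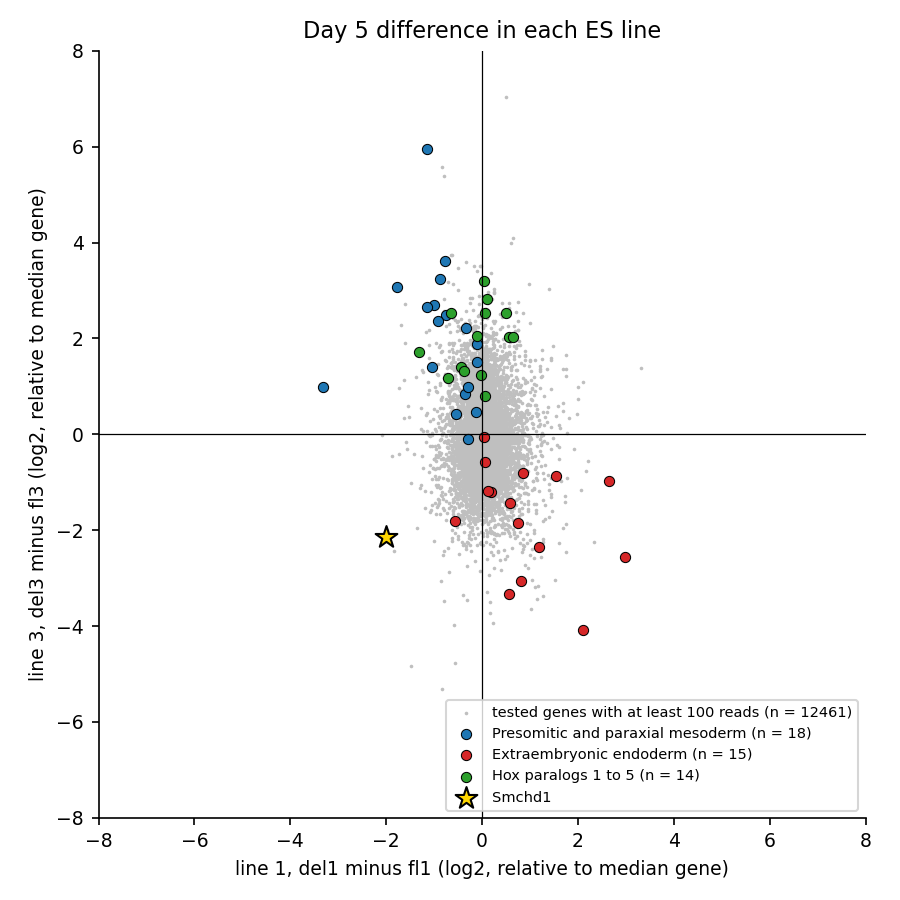
Log2 difference of each gene at day 5 in line 1 (x axis) against line 3 (y axis), relative to the median gene. Grey points are the 12461 genes with at least 100 reads, coloured points are list members, and the star is Smchd1. The cloud is tall and narrow, with presomitic genes at the upper left and extraembryonic endoderm genes at the lower right.

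Presomitic mesoderm genes gave the largest difference between the lines among the 32 lists. All 18 tested members were lower in del1 than in fl1 (median log2 difference -0.76), whereas 17 of 18 were higher in del3 than in fl3 (median 2.05). Over all tested genes the medians were -0.01 and -0.07, with 47.2 and 45.8% of genes higher. Of the 16 members with at least 20 reads at day 5, 16 were lower in line 1 and 15 higher in line 3. The other 2 were Ripply1, with 0 reads in both line 3 libraries, and Pcdh8, with 3 in each, whose line 3 sign follows the depth alone. In line 3, 2 members were called higher (11.1% against 5.29% of all tested genes), and in line 1 none was (limma). The members summed to 97.4 reads per M in fl1, 63.7 in del1, 55.8 in fl3 and 187 in del3, on the scale of the median gene, so del3 was the highest and fl3 the lowest. With fl1 in place of fl3, the median difference of del3 was 1.12.

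Tbx6 (chromosome 7, 126781483 to 126785560), the T-box factor that commits cells to presomitic mesoderm, had 164 reads in fl1, 53 in del1, 80 in fl3 and 338 in del3. The levels were 2.89, 1.11, 1.00 and 4.08, so del1 lay near fl3, and fl1 and del3 were the high ones. The read ratio was 0.291 in line 1 (95% interval 0.209 to 0.399) and 8.42 in line 3 (6.58 to 10.9), but the line 3 difference was not called (3.07 ± 0.91, adjusted p = 0.0782, limma with Benjamini-Hochberg adjustment). Meox1, a homeobox factor of forming somites, had 6, 3, 2 and 62 reads in the same order, a ratio of 61.7 in line 3 with an interval of 16.4 to 521. Foxc1, a forkhead factor of paraxial mesoderm, had 52, 26, 36 and 114 reads. The 2 called members were Pcdh19, a protocadherin (51, 45, 61 and 142 reads, line 3 log2 difference 2.21 ± 0.49, adjusted p = 0.0357, limma), and Snai1, a repressor of epithelial genes (89, 92, 128 and 184 reads, 1.52 ± 0.37, adjusted p = 0.0465, limma).

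Other members were picked after their values were seen, because they lead the segmentation programme. Msgn1, a bHLH factor of presomitic mesoderm, had 107, 70, 39 and 241 reads in fl1, del1, fl3 and del3. The Notch ligand genes were Dll1, which differed by -0.91 in line 1 and 2.37 in line 3, and Dll3, with 265, 146, 153 and 500 reads. Hes7, a clock gene downstream of Notch, had 71, 47, 67 and 190 reads. In each of these 4 genes del3 was the highest library, del1 was lower than fl1, and the line 3 difference was not called. The exception to the higher levels in line 3 was Pax3, with 52, 47, 96 and 45 reads and a line 3 difference of -0.10.

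The 250 bases before the RefSeq start of Tbx6, Msgn1, Dll3 and Hes7 (GRCm38.p6) are shown because all 4 genes had a lower level in del1 than in fl1 and a higher one in del3 than in fl3. They were chosen after their values were seen, and none was called in either line. Capitals mark matches, on either strand, to the TCF/LEF core CTTTGA. They also mark the T-box core TCACAC. The RBPJ core TGGGAA is marked likewise.
Tbx6, chr7:126781233-126781482, plus strand: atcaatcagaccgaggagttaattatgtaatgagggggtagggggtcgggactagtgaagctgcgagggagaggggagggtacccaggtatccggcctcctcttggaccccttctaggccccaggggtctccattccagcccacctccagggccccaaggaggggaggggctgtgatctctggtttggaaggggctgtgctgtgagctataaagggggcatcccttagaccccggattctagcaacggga
Msgn1, chr12:11208949-11209198, minus strand: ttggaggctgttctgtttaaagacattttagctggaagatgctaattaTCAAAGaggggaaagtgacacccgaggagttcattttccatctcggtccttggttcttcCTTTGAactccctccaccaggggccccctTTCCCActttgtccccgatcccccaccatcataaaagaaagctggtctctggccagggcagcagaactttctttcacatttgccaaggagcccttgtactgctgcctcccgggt
Dll3, chr7:28301786-28302035, minus strand: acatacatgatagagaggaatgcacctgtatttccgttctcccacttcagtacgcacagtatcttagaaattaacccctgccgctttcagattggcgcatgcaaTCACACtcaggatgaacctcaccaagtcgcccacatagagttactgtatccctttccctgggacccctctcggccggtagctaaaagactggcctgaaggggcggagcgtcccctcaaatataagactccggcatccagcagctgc
Hes7, chr11:69120203-69120452, plus strand: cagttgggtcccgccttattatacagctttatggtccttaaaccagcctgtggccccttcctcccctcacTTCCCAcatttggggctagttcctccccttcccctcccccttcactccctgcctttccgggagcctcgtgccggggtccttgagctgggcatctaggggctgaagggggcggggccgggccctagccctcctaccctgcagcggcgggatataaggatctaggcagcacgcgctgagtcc

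The Msgn1 window held 2 TCF/LEF matches and 1 RBPJ match, the Dll3 window 1 T-box match, the Hes7 window 1 RBPJ match, and the Tbx6 window none. Of the 18 members, 14 had an entry, with 17 promoters, of which 1 held the TCF/LEF core, 2 the T-box core and 3 the RBPJ core. Among all 32851 promoters 13.8, 12.3 and 21.6% held them. A match is a description of letters in this window.

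Hox genes, which encode position along the body axis and are switched on in order from the early paralogs, were higher in del3 in every tested member of paralogs 1 to 9. Paralogs 1 to 5 had a median log2 difference of 0.00 in line 1 (7 of 14 higher) and 2.03 in line 3 (14 of 14 higher, 1 called by limma). The 1 called gene is 7.14% of that list, against 5.29% of all tested genes called higher. Paralogs 6 to 9 had 0.10 in line 1 (8 of 12 higher) and 1.95 in line 3 (12 of 12 higher, 0 called by limma). In all 26 of these genes del3 was the highest of the 4 libraries. The late paralogs 10 to 13 went opposite ways, with -0.71 in line 1 (10 of 12 lower) and 0.84 in line 3 (11 of 12 higher, median 0.03 on the deposited scale). Of the 9 late genes with at least 20 reads, 8 were lower in line 1 (median -1.15) and 9 higher in line 3 (0.69).

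Hoxb3 (chromosome 11, 96323326 to 96346685) was the called member. It had 57 reads in fl1, 65 in del1, 66 in fl3 and 302 in del3, so 3 libraries lay close together and del3 above them. Its read ratio was 1.03 in line 1 (0.708 to 1.49) and 9.11 in line 3 (6.96 to 12.1), and its line 3 log2 difference was 3.19 ± 0.69 (adjusted p = 0.0348, limma). Hoxd3 had 86, 103, 139 and 493 reads, and Hoxa9 had 55, 61, 100 and 305. Among the late genes Hoxd11 had 61, 39, 41 and 145 reads, and Hoxc10 had 56, 20, 82 and 90. The Hox genes sit close together and partly overlap each other, and no source used here says whether the counting used strand.

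Extraembryonic endoderm genes, which mark the yolk sac lineage that ES cultures can also form, went the opposite way to the presomitic genes. In line 1, 14 of 15 members were higher in del1 (median 0.75), and in line 3 all 15 were lower in del3 (median -1.44), with 1 called lower by limma. That 1 gene is 6.67% of the list, against 2.62% of all tested genes called lower. The library that stood out was the floxed one of line 3: fl3 was the highest in 13 of 15 members. The members summed to 431 reads per M in fl1, 490 in del1, 793 in fl3 and 378 in del3. No member was at 0 reads in any of the 4 libraries. Against fl1 in place of fl3, del3 had a median difference of 0.28.

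Dab2 (chromosome 15, 6299788 to 6440712), an endocytic adaptor of endoderm, was the called member, with 11 reads in fl1, 18 in del1, 418 in fl3 and 21 in del3. Its line 3 log2 difference was -3.32 ± 0.73 (adjusted p = 0.0362, limma), and fl3 alone was high. Cubn, an endocytic receptor of visceral endoderm, had 8, 38, 338 and 10 reads. Sox7, an endoderm transcription factor, had 4, 35, 117 and 10 reads, a ratio of 7.87 in line 1 (2.82 to 30.5) and 0.170 in line 3 (0.0796 to 0.324). Gata4, a zinc finger factor of endoderm and heart, had 44, 86, 517 and 31 reads, and Lama1, a laminin chain of the basement membrane, named after its values were seen, had 218, 555, 4449 and 436. None of these 4 was called in either line. Definitive endoderm markers were also lower in line 3, with a median of -1.64 (8 of 10 lower, 1 called by limma) against -0.25 in line 1 (6 of 10 lower), and they share Gata4, Gata6 and Sox17 with the extraembryonic list. Their 1 called gene, Prdm1, is 10% of the list, against 2.62% of all tested genes called lower. Prdm1 is also on the germline list, where it is counted again below. In this bulk RNA, fewer cells of a type and less RNA per cell cannot be told apart, and the part of these genes in the other line 3 differences was not tested.

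**Figure D3:**
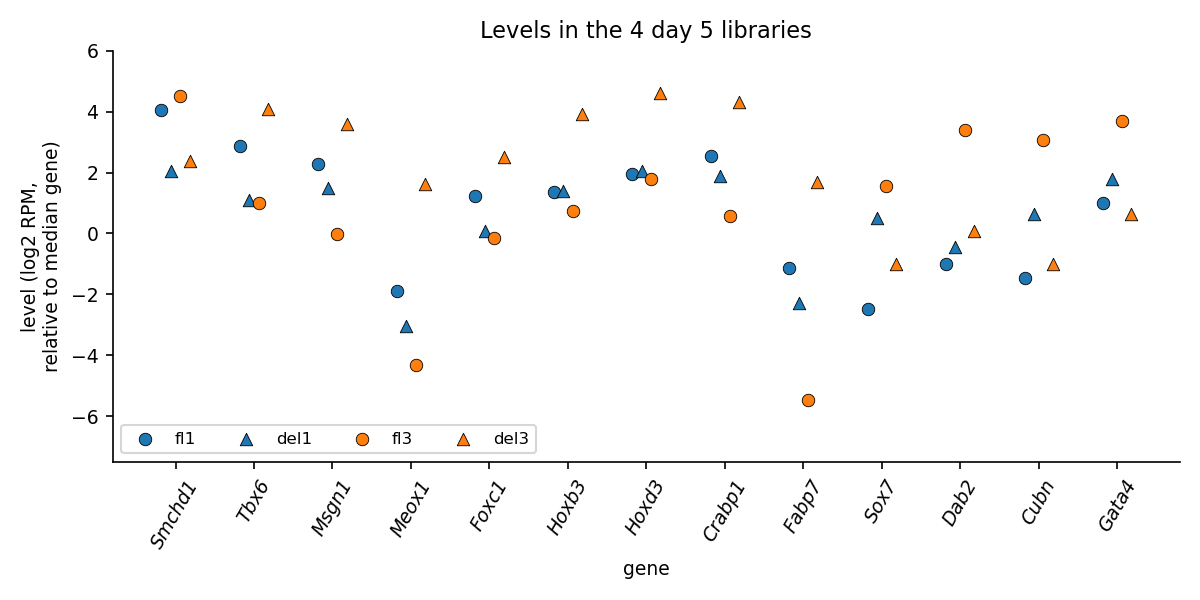
Level (y axis, log2 RPM relative to the median gene) of 13 genes (x axis) in the 4 day 5 libraries. Circles are floxed and triangles deleted libraries, blue is line 1 and orange line 3. Smchd1 is lower in both deleted libraries, Tbx6 to Fabp7 are highest in del3, and Sox7 to Gata4 are highest in fl3. Fabp7 had 0 reads in fl3 and is drawn at the entered value for 0 reads.

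Caudal and progenitor genes moved less than presomitic genes. Their median was -0.17 in line 1 (15 of 19 lower) and 0.78 in line 3 (17 of 19 higher), with 0 called in either line by limma, and on the deposited scale the line 3 median was -0.03. Cdx4, a caudal homeobox gene, had 158 reads in fl1, 116 in del1, 199 in fl3 and 327 in del3. Gdf11, the growth factor gene of the trunk to tail switch, had 202, 199, 260 and 256 reads, and a line 3 difference of 0.97 ± 0.34 (adjusted p = 0.117, limma). Wnt5b, a Wnt ligand gene of the caudal end, differed by -0.08 in line 1 and 0.64 in line 3.

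Targets of the Wnt pathway, which the inhibitor acts on, had medians of -0.11 in line 1 (10 of 23 higher) and 0.42 in line 3 (17 of 23 higher, 1 called by limma), the latter -0.40 on the deposited scale. Their line 3 differences ran from -1.21 to 3.50. Axin2, a feedback inhibitor, differed by 0.05 in line 1 and 0.08 in line 3, Tcf7 by -0.12 and 0.00, and Ccnd1 by 0.05 and 0.09, all 3 named after their values were seen. Nkd2, an inhibitor of Dishevelled, was the called one, with 61, 60, 46 and 262 reads in fl1, del1, fl3 and del3 and a line 3 difference of 3.50 ± 0.45 (adjusted p = 0.0103, limma). This 1 gene is 4.35% of the 23 members, near the 5.29% of all tested genes called higher. Wnt ligand genes had medians of -0.08 and -0.48, with 0 called by limma.

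Members of other signalling lists were also called in line 3. Crabp1, a retinoic acid binding protein, had 128, 91, 60 and 404 reads in fl1, del1, fl3 and del3, and a line 3 difference of 3.75 ± 0.39 (adjusted p = 0.0073, limma). The retinoic acid list had medians of -0.27 and 0.06 over 17 members. Crabp1 was its 1 called member, 5.88% of the list, near the 5.29% of all tested genes called higher. Fgf2, the gene of the growth factor also added to the medium, had 24, 39, 46 and 110 reads (line 3 difference 2.25 ± 0.45, adjusted p = 0.0283, limma). It was the 1 called member of the FGF-ERK list (4.76% of 21), again near the share of all tested genes. The BMP targets Id3 and Id2 had 289, 452, 416 and 491 reads and 161, 227, 255 and 333 reads, higher in both deleted libraries than in their own floxed library, and were called in line 3 at 1.23 ± 0.18 and 1.38 ± 0.21 (adjusted p = 0.0128 and 0.0141, limma). With Id1, at 1.13 in line 3, these were the 3 of 25 members of the BMP list called higher there by limma (12% against 5.29% of all tested genes), and none was called lower. The list had a line 3 median of 0.45 over 25 members but -0.01 over the 23 with at least 20 reads. Fabp7, a lipid binding protein of neural progenitors, had 10, 5, 0 and 64 reads, and against a floor of 3 reads in fl3 it was at least 42.5-fold higher in del3, while the 95% counting interval of the read ratio, which also covers the error of the del3 reads, starts at 33.6. The neural progenitor list as a whole had medians of 0.08 and -0.20 (5 of 15 and 9 of 15 lower). Fabp7 was its 1 member called in line 3 by limma (6.67%, near the 5.29% of all tested genes).

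**Figure D4:**
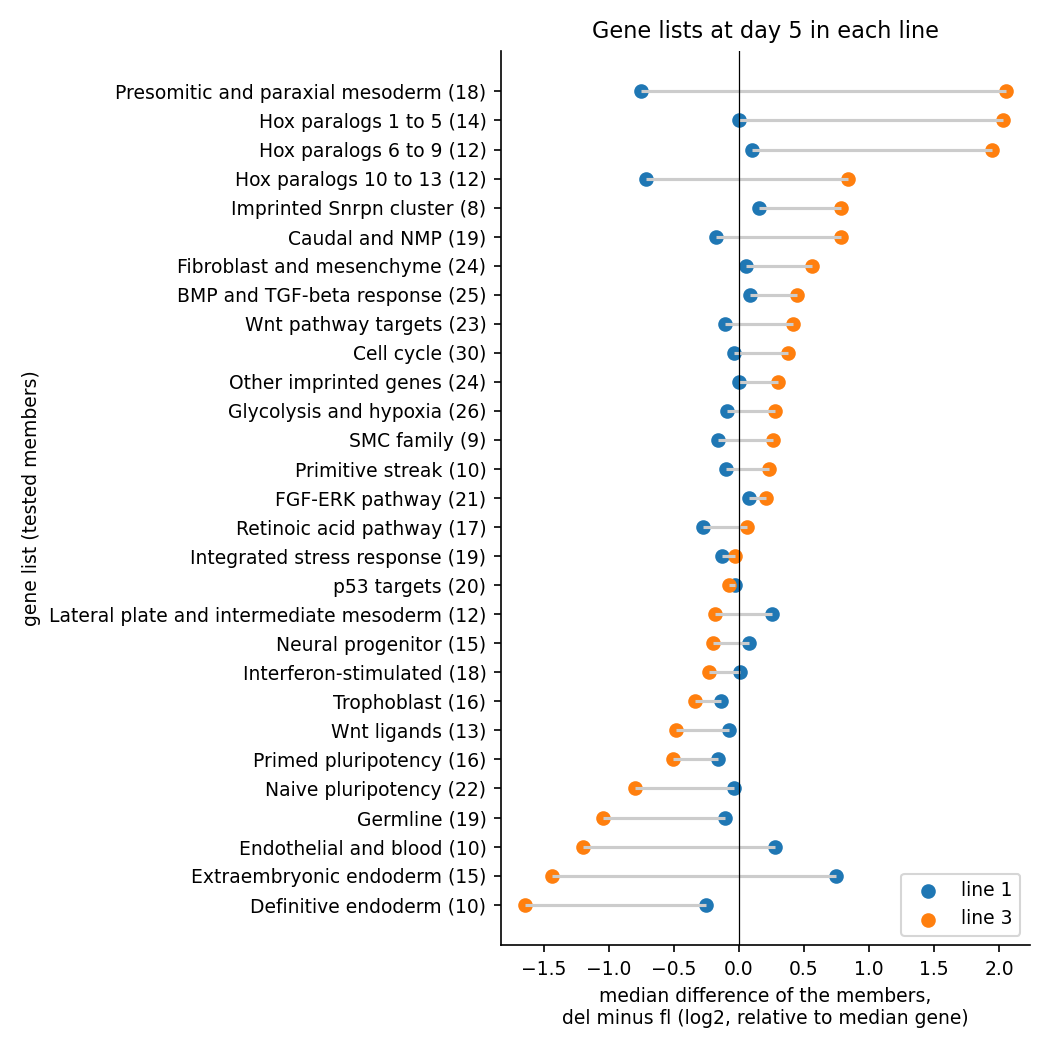
Median log2 difference at day 5 (x axis, relative to the median gene) of the tested members of each list with at least 8 of them (y axis, number in brackets), in line 1 (blue) and line 3 (orange). The line 3 medians run from -1.64 (definitive endoderm) to 2.05 (presomitic and paraxial mesoderm) and the line 1 medians from -0.76 to 0.75.

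Most tested pluripotency and germline genes had a lower level in del3 than in fl3. Naive pluripotency genes had medians of -0.04 in line 1 and -0.80 in line 3. In line 3, 15 of 22 were lower (68.2%, against 54.2% of all tested genes), and in line 1, 14 of 22 (63.6% against 52.8%). By limma, 2 were called higher in line 3 (9.09%, against 5.29% of all tested genes) and 1 lower (4.55% against 2.62%). The 2 called higher were Gbx2 (159, 171, 221 and 305 reads in fl1, del1, fl3 and del3) and Fbxo15 (193, 233, 293 and 500 reads), and the one called lower was Nr5a2, with a line 3 difference of -1.81, named because the count is small. Nanog, a core pluripotency factor, had 199, 144, 159 and 208 reads and was not called. Pou5f1 differed by -0.14 in both lines. Primed pluripotency genes had medians of -0.16 and -0.51, with 12 of 16 lower in each line and 0 called by limma.

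Germline genes, several of them silenced by DNA methylation in somatic cells, had medians of -0.11 (11 of 19 lower) and -1.05 (14 of 19 lower, 4 called lower by limma). Of all tested genes 54.2% were lower in line 3 and 2.62% called lower, against 73.7 and 21.1% of the germline list. Dnmt3l, a cofactor of DNA methyltransferases, had 697, 645, 1262 and 280 reads in fl1, del1, fl3 and del3 (line 3 difference -1.18 ± 0.17, adjusted p = 0.0128, limma). Mael, a piRNA pathway gene, had 52, 43, 85 and 9 reads (-2.25 ± 0.40, adjusted p = 0.0209, limma). Prdm1 and Tfap2c, factors of primordial germ cells, were the other 2, at -2.05 and -1.11. In these 4 genes del3 was the lowest library and the other 3 lay closer together.

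Cell cycle genes had medians of -0.04 in line 1 and 0.37 in line 3, where 26 of 30 were higher (86.7%, against 45.8% of all tested genes) and 5 were called higher by limma (16.7% against 5.29%). On the deposited scale the line 3 median was -0.44, and with the trend on reads per kb (described below) removed it was 0.16. Genes with many reads per kb were called higher more often in line 3, and the share of the list was not compared with genes of like density. Cdk1, the mitotic kinase, had 694, 680, 1035 and 1166 reads in fl1, del1, fl3 and del3 (line 3 difference 1.17 ± 0.15, adjusted p = 0.0111, limma). Pcna, the replication clamp, differed by 1.29 ± 0.26 in line 3 and by -0.16 in line 1. Fibroblast and mesenchyme genes had medians of 0.06 and 0.56 with 0 called by limma, and the latter was -0.25 on the deposited scale.

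Imprinted genes are among the clusters that Smchd1 is known to act on. In the Snrpn cluster of chromosome 7, 6 of 8 genes were higher in del1 (median 0.15) and 7 of 8 in del3 (median 0.78, and -0.03 on the deposited scale), and 3 were called higher in line 3 by limma (37.5% against 5.29% of all tested genes). Peg12, an intronless gene of that cluster, had 49 reads in fl1, 65 in del1, 65 in fl3 and 162 in del3, and differed by 0.26 in line 1 and 2.31 ± 0.41 in line 3 (adjusted p = 0.0201, limma). Mkrn3, a ring finger gene, had 43, 69, 70 and 113 reads and differed by 0.53 and 1.69 ± 0.33 (adjusted p = 0.0266, limma). Ndn, a MAGE family gene, differed by 0.18 and 1.20 ± 0.20 (adjusted p = 0.0182, limma). These 3 had both deleted libraries above both floxed ones, which held for 4 of the 8 genes (50%) and for 14.3% of all tested genes. Magel2, of the same cluster, had 4, 2, 10 and 8 reads. Among 24 other imprinted genes 2 were called higher in line 3, a share of 8.33% that is near the 5.29% of all tested genes (Dlk1 at 3.40 and Nnat at 1.00) and 1 lower (Igf2r at -0.89), against line 1 differences of -0.11, 0.04 and -0.01.

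The genes with the smallest p for the difference between the lines included 6 whose line 3 difference lay above that of line 1, and del3 was the highest library in each. Nudcd1, whose protein has a CS domain, had 262, 276, 417 and 840 reads in fl1, del1, fl3 and del3, and Polr3k, a subunit of RNA polymerase III, had 242, 254, 315 and 626. Med30, a Mediator subunit, had 134, 162, 197 and 560 reads, and Kif18a, a mitotic kinesin, 100, 93, 143 and 358. Dact1, a modulator of Wnt signalling, had 261, 197, 179 and 470, and Rpf2, a ribosome assembly factor, 319, 240, 446 and 602. The line 3 difference exceeded the line 1 difference by 1.99 to 2.94 in these 6 genes (adjusted p = 0.0561 in each, limma), which missed the threshold. In the opposite direction Llgl2, a cell polarity gene, had 875, 805, 1585 and 312 reads, and Trak1, an adaptor of mitochondrial transport, 288, 365, 749 and 150. Znf512b, Kif21a, Rtkn2 and Pxk were the other 4, and over all 6 the line 3 difference lay 1.08 to 3.21 below that of line 1 (adjusted p = 0.0591 to 0.0788, limma).

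Of the genes whose ratios lay on 1 side in both lines beyond counting error, the 6 higher ones with the largest smaller difference were Rbm44, Fsip1, Chit1, Zfp759, Thbs2 and Col3a1. Col3a1, a fibrillar collagen, had the most reads of them, with 63 in fl1, 195 in del1, 113 in fl3 and 204 in del3. Both deleted libraries lay above both floxed ones, as for 14.3% of all tested genes. The difference of Col3a1 over both lines was 1.66 ± 0.70 (adjusted p = 0.597, limma). Thbs2, another matrix gene, had 5, 18, 10 and 14 reads, and Chit1, a chitinase, had 3, 13, 0 and 7. The 6 lower ones were Rab27b, Cyp21a1, Slc27a2, Prl2a1, Olfm2 and Edn1. Prl2a1, a placental prolactin family gene, had 74, 23, 118 and 11 reads, and Edn1, the endothelin gene, 12, 2, 41 and 7. None of these 12 genes was called over both lines.

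Genes that differed between genotypes at day 8 were followed back to day 5. Among the 13793 tested genes with at least 20 reads over the 4 day 5 libraries, 429 were at least 4-fold higher at day 8 in the deleted libraries. The groups did not overlap, and by the same rule 271 were lower. The day 8 libraries are other libraries than those of day 5, but the read filter uses the day 5 libraries. At day 5 the 429 genes had a median difference of 0.04 in line 1 (226 higher, 52.7%) and 1.06 in line 3 (335 higher, 78.1%). The 271 genes had 0.03 in line 1 (129 lower, 47.6%) and -1.51 in line 3 (254 lower, 93.7%). Of all tested genes, 47.2% were higher and 52.8% lower in line 1, and 45.8 and 54.2% in line 3. In median level the 429 genes stood at 0.05 in fl1, 0.02 in del1, 0.00 in fl3 and 1.00 in del3 at day 5, and at 0.09, 1.84, -1.80 and 2.25 at day 8. For the 429 genes del1 thus lay with the floxed libraries at day 5 and del3 above them. The day 8 split is set by the rule. The 271 genes stood at 0.17 in fl1, 0.38 in del1, 0.87 in fl3 and -0.52 in del3 at day 5. Here fl3 was the highest library and del3 the lowest, so both enter the line 3 difference. On the deposited scale the line 3 medians of the 2 sets were 0.24 and -2.32, and with the sets drawn without the shallow floxed day 8 library of line 3 they were 1.17 and -1.61. With a threshold of 2-fold in place of 4-fold they were 0.69 and -0.995.

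Lists were also drawn from each line alone at day 8, with the same 4-fold threshold and read filter. The 223 genes higher in del1 at day 8 had medians of -0.01 in line 1 and 1.17 in line 3 (177 higher, 79.4%) at day 5. The 226 lower ones had 0.17 and -1.54 (208 lower, 92.0%). The 906 genes higher in del3 at day 8 had 0.05 and 0.57 (645 higher, 71.2%), and the 559 lower ones -0.03 and -1.02 (461 lower, 82.5%). In line 3, 45.8% of all tested genes were higher and 54.2% lower. Genes that rise or fall with time in the floxed cells were read in the same way, under the same read filter. The 1591 genes at least 4-fold higher at day 8 than at day 1 in floxed cells had median day 5 differences of 0.05 in line 1 and -0.50 in line 3, and the 824 lower ones had -0.05 and -0.01. In median level the 1591 genes stood at 1.74 in fl1, 1.84 in del1, 2.06 in fl3 and 1.58 in del3 at day 5. Whether these values reflect the stage of the cells was not tested.

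**Figure D5:**
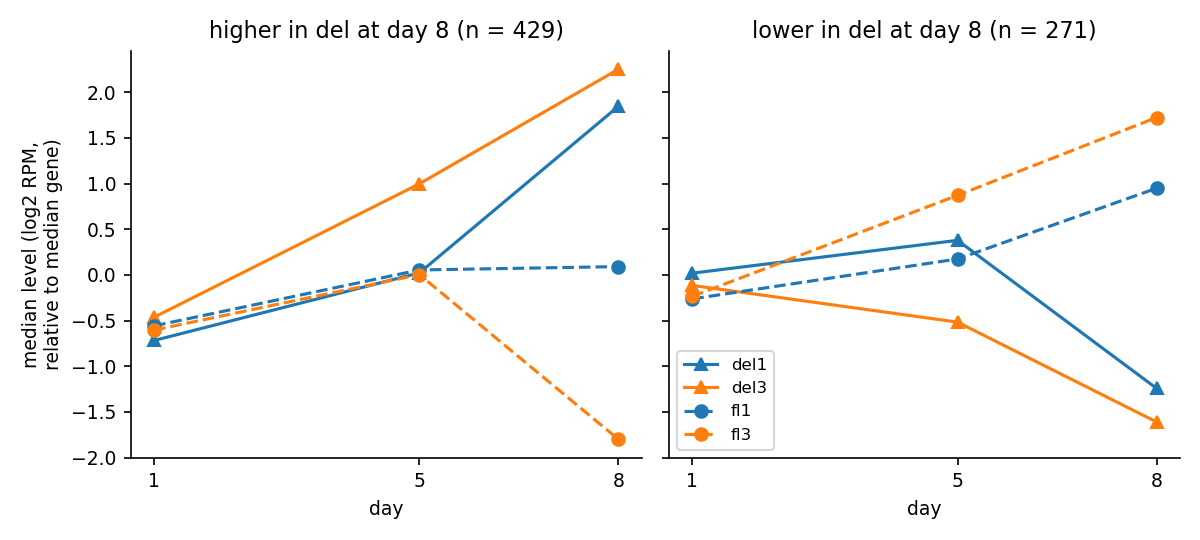
Median level (y axis, log2 RPM relative to the median gene) over days 1, 5 and 8 (x axis) of the 429 genes higher and the 271 genes lower in the deleted libraries at day 8, by which rule the day 8 points part. Triangles with solid lines are deleted and circles with dashed lines floxed libraries, blue is line 1 and orange line 3. At day 5 del3 is at 1.00 in the first set and the other 3 libraries at 0.00 to 0.05, and in the second set del3 is at -0.52 and fl3 at 0.87.

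The line 3 differences also followed properties of the genes. Genes with at least 100 reads at day 5 and a known exon length were split into 5 equal groups by that length. From short to long, the median line 3 difference went from 0.22 to -0.28 and that of line 1 from -0.05 to 0.04. All tested genes with a known exon length were split likewise by reads per kb. From low to high, line 3 went from -0.18 to 0.16 and line 1 from 0.08 to -0.05. In line 3, limma called 26 genes higher in the lowest of these groups and 279 in the highest, of 2537 in each. Called lower were 37 and 41. With the trend on length removed from each library, line 3 kept 566 called higher and 225 lower, of which 688 were also called without that step, and the medians of the presomitic and extraembryonic endoderm lists were 2.00 and -1.32. With the trend on reads per kb removed they were 2.23 and -1.56. The part of RNA quality in these trends was not tested.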

How the data were processed

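RNA was sequenced in 12 libraries in 6 groups, of which 4 at day 5 are described. The tools named in the submitters' processing notes are bcl2fastq, edgeR and TopHat2 2.0.12, and the build is mm10. Their roles, and any strand setting, are not stated. The deposited values are log2 RPM per the labels, for 25965 genes (66 names occur more than once). Read numbers were recovered from the steps of these values (whole within 0.02 reads for 100% of values, 0 entered as 0.9 reads). All 12 columns were used.

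Each library was shifted by the median of its log ratios to the mean library. The 14063 genes whose deposited value exceeded 0 in 2 or more libraries were tested with limma 3.58.1 in R 4.3.3, with a mean-variance trend, and p-values were adjusted by the Benjamini-Hochberg method at 0.05. One model had 6 group means. Another had a mean for each day 5 library beside the 4 groups of days 1 and 8. Values after ± are limma's SE. Read ratios have exact conditional 95% intervals, for counting error only, and floors use 3 reads. Each line came from its own blastocyst, per the labels, and was sampled once per genotype and day, so technical and biological spread cannot be told apart. Exon lengths came from GENCODE M21, and promoters from RefSeq. The fits were also run on simulated reads, with a mean per gene and a spread shared by all libraries apart from the added changes. Those reads had no day effects or length trends, so they do not test how stable the counts of called genes are here.

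The replicate number is the ES line, per the labels' protocols, so it pairs libraries. Across 12461 genes, the deviations of same-line libraries correlated at 0.157 at day 1, -0.208 at day 5 and -0.107 at day 8. The members, lists and alternatives were chosen with earlier results of these data known. The text names Smchd1, the 6 genes per direction with the largest difference shared by the lines, the 6 per direction with the smallest p for the difference between lines, and up to 4 members per list with the smallest p and any Hox gene, from genes with at least 20 reads at day 5.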

Additional observations from a re-analysis of the deposited data

Results flagged for a closer look

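In 4 gene lists of at least 10 tested members, at least 75% of the members moved one way in line 1 and at least 75% the opposite way in line 3. The difference between the lines was not tested for a list as a whole. The median difference in line 3 minus that in line 1 was 2.81 (log2) for presomitic and paraxial mesoderm genes, -2.18 for extraembryonic endoderm genes, 1.55 for Hox paralogs 10 to 13 and 0.96 for caudal and progenitor genes. The presomitic members were highest in del3 for 15 of 18 genes, and the extraembryonic endoderm members were highest in fl3 for 13 of 15 genes. The median of fl3 minus fl1 was -1.03 for presomitic and 1.72 for extraembryonic endoderm genes, so fl3 departed from fl1 in both lists. That of del3 minus fl1 was 1.12 and 0.28.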

How the results depend on the processing

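The number of genes called over both lines (1, Smchd1) was 0 on the deposited scale, with no filter beyond 1 read, with limma-voom, with array weights, with only the 4 day 5 libraries, with the exon length trend removed, and with the line as a replicate block. With the numbers of the 2 floxed day 5 libraries crossed in that block it was also 0. Leaving out each library gave 0 to 1571, the highest without del1 of day 5. For line 1 (0 genes), array weights gave 1 and leaving out libraries 0 to 0. For line 3 (1112 genes), the deposited scale gave 0, no filter 0, limma-voom 2075 and array weights 3692, and leaving out each day 1 or day 8 library gave 219 to 4361. For the difference between lines (0 genes), quantile normalization gave 45, limma-voom 314, array weights 1614, removal of the exon length trend 8, and leaving out libraries 0 to 2373, the high ones without a floxed day 8 library. The cause of these shifts was not tested. The trend removals, the crossed block and the lists from 1 line were added after the data were seen. Medians per line were run under part of these settings, with all libraries kept. There the presomitic median stayed between -0.82 and -0.36 in line 1 and 1.24 and 2.23 in line 3, and the extraembryonic endoderm median between 0.59 and 0.81 and between -2.25 and -1.23. Over presomitic members with at least 20 reads, the line 3 median was 2.29. With 1 day 5 library left out, the presomitic median over both lines (0.72) ran from -0.18 without del3 to 1.665 without del1. The extraembryonic endoderm one (-0.51) ran from -1.29 without fl1 to 0.43 without fl3. No called named gene changed direction under the settings run. Genes of a few reads, such as Meox1 and Fabp7, are limited by depth.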

Other observations

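Other gene lists held single called genes in line 3, where 5.29% of all tested genes were called higher and 2.62% lower. Bnip3, a hypoxia-induced mitophagy gene, had 80 reads in fl1, 80 in del1, 139 in fl3 and 279 in del3 and differed by 2.00 ± 0.29 in line 3 (adjusted p = 0.0128, limma with Benjamini-Hochberg adjustment), while the glycolysis and hypoxia list had medians of -0.09 and 0.28 over 26 members. Lmo2, a blood and endothelial cofactor, had 511, 556, 561 and 1566 reads and differed by 2.48 ± 0.46 in line 3 (adjusted p = 0.0236, limma). It was the 1 called member of the endothelial and blood list and went against it, since the list had medians of 0.28 in line 1 and -1.20 in line 3 (8 of 10 lower). Pecam1 and Tek, endothelial surface genes, were lowest in del3 with 39, 61, 100 and 15 reads and 15, 23, 47 and 6 reads. Oasl2, an interferon-stimulated gene, had 44, 28, 65 and 6 reads and differed by -2.44 ± 0.53 in line 3 (adjusted p = 0.0344, limma).

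The p53 targets had medians of -0.03 and -0.08 over 20 members, and the integrated stress response genes -0.13 and -0.03 over 19, with 0 called in either line (limma). Trophoblast genes had medians of -0.14 and -0.34 over 16 members, with Tfap2c called lower in line 3 (6.25%, against 2.62% of all tested genes).

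The X chromosome, on which Smchd1 is known to act when inactive, had 495 tested genes with medians of -0.02 in line 1 and 0.10 in line 3. Of these, 35 were called higher and 11 lower in line 3 by limma, 7.07 and 2.22% against 5.29 and 2.62% of all tested genes.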
